A study of Mus musculus with 5 samples.

Results

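The 39 collagen genes of the mouse described here were chosen by name, and their CpG methylation (mC) was read in female mouse embryonic fibroblasts (MEFs). A CpG position belonged to a gene when it lay inside the gene or within 2 kb upstream of it in the GENCODE M21 annotation of mm10, and it was used on an allele when every one of the 5 libraries held at least 10 calls there. This gave 489 of the 170286 positions used on the castaneus allele and 495 of the 165153 used on the domesticus allele. Of the 39 genes, 33 had a position on at least one allele. All cells came from E13.5 embryos, which the labels give as 129/C57 dams crossed with CAST sires and the study's text as 129/CAST F1. They carried Xist-deltaA on one X chromosome (Xist-deltaA/+), were transduced with a retrovirus and were selected with puromycin. The 3 Female control libraries were Setdb1+/+ with the Nonsilencing hairpin. The 2 Setdb1 depleted libraries were Setdb1+/gt with the shSetdb1 hairpin, so the effects of genotype and hairpin cannot be told apart. Setdb1 is a histone H3 lysine 9 methyltransferase, and its own level was not measured in these files. The design asks whether its depletion changed mC, and the cross allows each gene to be read on the maternal domesticus and the paternal castaneus allele.

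Collagens are triple-helical proteins of the extracellular matrix, and fibroblasts are their main source in connective tissue. Fibrillar collagens such as types I, II, III and V form the cross-striated fibrils, network collagens such as types IV and VIII form sheets, and FACITs (fibril-associated collagens with interrupted triple helices) bind to fibril surfaces. In mammalian cells most CpGs of a gene body are methylated, whereas CpG-rich promoters are usually free of mC whether or not the gene is transcribed.

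Stretches of mm10 that carry the levels described below are printed 5′ to 3′ on the strand of the gene, with the CpGs that were measured in capitals. The Col5a1 and Col16a1 stretches show promoters almost without mC, Col8a2 a promoter in which mC climbs over a short distance, Col1a1 and Col2a1 gene bodies with little mC, and Col6a2 a gene body with nearly full mC.
Col5a1 promoter, chr2:27886233-27886294, plus strand: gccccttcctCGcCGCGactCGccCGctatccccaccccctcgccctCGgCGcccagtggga
Col16a1 promoter, chr4:130047705-130047775, plus strand: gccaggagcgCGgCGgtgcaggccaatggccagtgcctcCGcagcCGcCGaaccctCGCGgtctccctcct
Col8a2 promoter, in the intron after the start, chr4:126286928-126287127, plus strand: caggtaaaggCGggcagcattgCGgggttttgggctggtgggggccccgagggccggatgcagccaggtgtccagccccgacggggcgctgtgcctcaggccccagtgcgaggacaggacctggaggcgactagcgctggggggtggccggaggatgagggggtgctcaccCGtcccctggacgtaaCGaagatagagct
Col1a1 body, intron and coding exon, chr11:94941302-94941398, plus strand: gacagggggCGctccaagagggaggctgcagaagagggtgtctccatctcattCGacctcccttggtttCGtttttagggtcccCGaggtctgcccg
Col2a1 body, intron, chr15:98002242-98002297, minus strand: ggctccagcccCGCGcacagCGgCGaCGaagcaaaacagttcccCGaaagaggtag
Col6a2 body, coding exon, chr10:76596281-76596391, minus strand: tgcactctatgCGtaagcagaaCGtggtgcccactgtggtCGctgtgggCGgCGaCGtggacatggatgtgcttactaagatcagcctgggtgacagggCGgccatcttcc

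In eRRBS (enhanced reduced representation bisulphite sequencing) only DNA next to MspI sites is read. A used position also needed reads that hold a base differing between the strains, so that they could be assigned to an allele. Several of the best-known collagen genes were not covered. Col1a2 and Col3a1, which encode the second chain of type I collagen and the only chain of type III collagen, had no used position on either allele, and neither did Col10a1, Col15a1, Col20a1 and Col28a1. Col1a1, the main chain of type I collagen, had none in its promoter. A promoter here is the set of positions within 1 kb of a transcript start of the gene, and a gene body is the set inside the gene and more than 1 kb from every start. With at least 3 positions asked for, promoters were measured for 19 genes on the castaneus and 18 on the domesticus allele, and gene bodies for 21 genes on each. The positions covered differ between the alleles, so levels and depletion differences of a gene on the 2 alleles rest on partly different positions. The 19 genes with a measured promoter on either allele held 4 to 18 MspI sites within 1 kb of their 5′ end (median 10), and the other 20 genes held 0 to 14 (median 4). Among these 20, Col12a1 held 14 sites and Col15a1 held 10. What left a gene without coverage was not tested. Col4a1 and Col4a2 start from a shared promoter in opposite directions, as do Col4a3 and Col4a4, so each of these pairs has 1 promoter value that is listed for both genes.

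The depth of a library was 9440874 to 10558931 CpG calls on an allele, and 27.8 to 29.6% of them were methylated. At Zrsr1, Peg13 and Inpp5f, imprinted genes methylated on the maternal copy, mC was 89.5 to 98.0% on the domesticus and 0.787 to 17.6% on the castaneus allele across the libraries. Few marker promoters were measured, so the fibroblast label could not be settled by promoter mC. Of 10 fibroblast markers 3 promoters were measured on the castaneus allele, Vim with 0.0961%, Pdgfra with 0.262% and Thy1 with 11.8% in controls. The epithelial genes Cdh1 and Epcam had 1.27 and 0.793%, the muscle gene Myod1 1.07% and the cartilage gene Acan 0.883%, while Pou5f1, a pluripotency gene, had 50.8%. On the domesticus allele Vim and Pdgfra, at 0.123 and 0.0283%, lay below the other markers measured, which ran from 1.62% in Acan to 53.9% in Pou5f1. Nothing in the labels says that libraries came from separate embryos, so p-values measure the spread between these libraries, which may be technical.

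In controls most collagen promoters had little mC, although their median was above that of all promoters. On the castaneus allele 12 of 19 promoters had under 5% mC and all 19 had under 30%, and on the domesticus allele these counts were 12 and 18 of 18. The median over the genes was 1.94% ± 0.754 (SD, n = 3) on the castaneus and 3.08% ± 0.263 on the domesticus allele, and over all promoters measured it was 0.204% ± 0.0264 and 0.212% ± 0.0297. Of all promoters, 83.6% on the castaneus and 83.9% on the domesticus allele had under 5% mC, against 63.2 and 66.7% of the collagen promoters. Over the promoters measured, the median ratio of observed to expected CpGs near the 5′ end was 0.521 for the collagen genes and 0.638 for all genes on the castaneus allele. Across the 19 collagen promoters on that allele, this ratio and mC had a Spearman rho of -0.64 and a Pearson r of -0.41, and across all 9279 promoters these were -0.39 and -0.44. Genes of a family and of a library are not independent, and the paired type IV genes enter with the same promoter value, so no test is given.

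**Figure D1:**
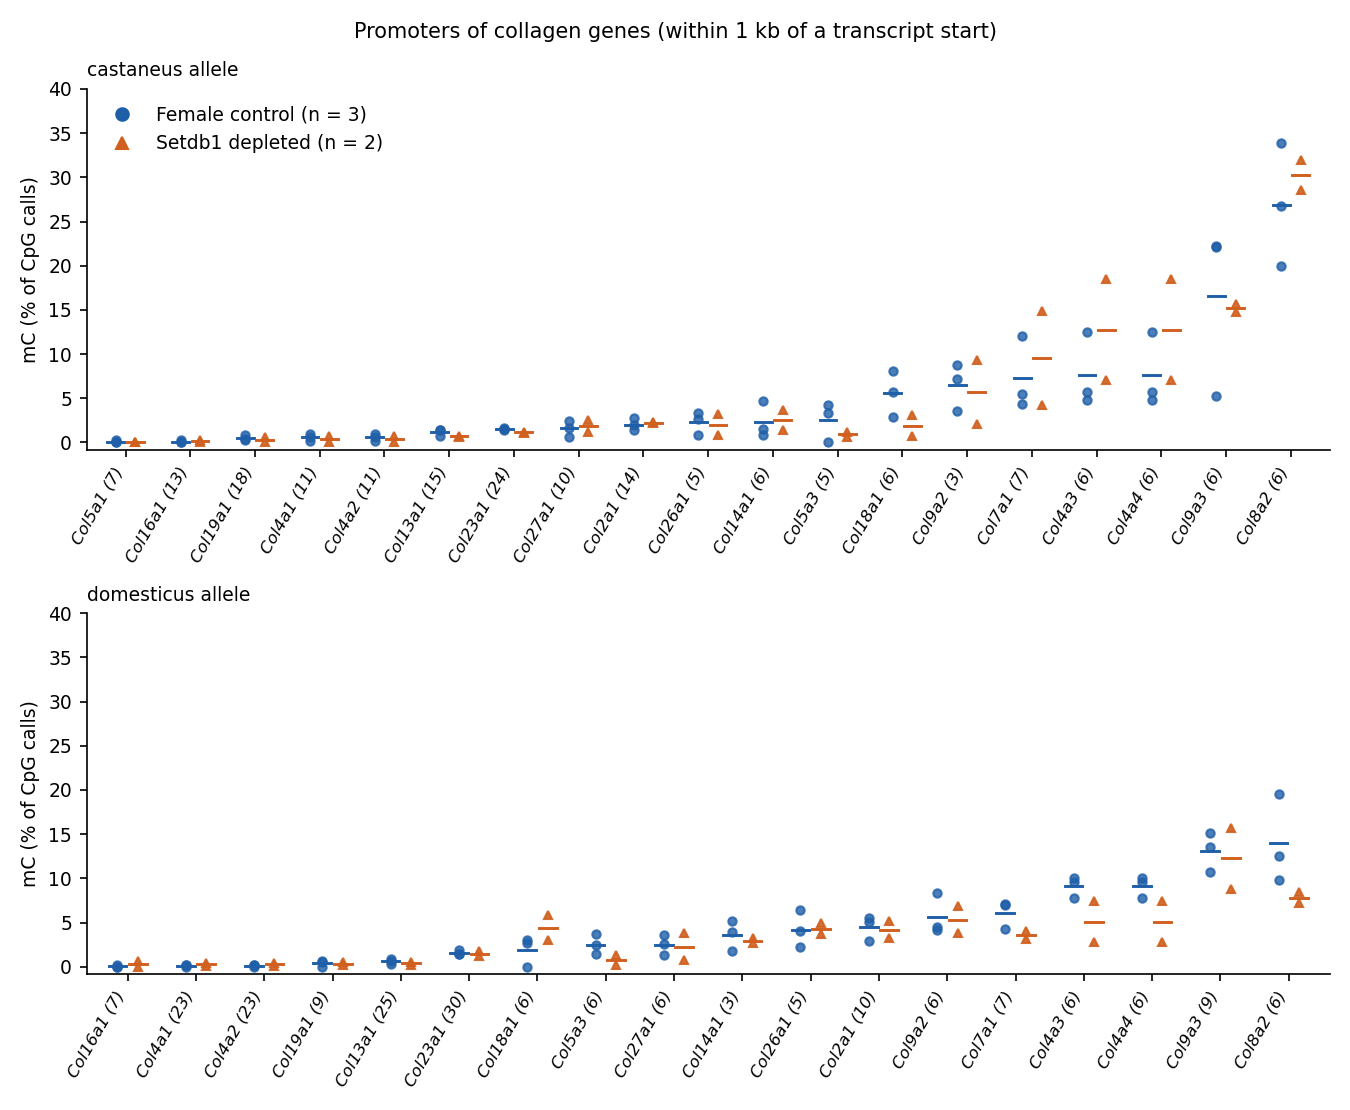
Promoter mC (percent of CpG calls, vertical axis) of each collagen gene with at least 3 positions, ordered by the control mean, with the number of positions in brackets. Circles are the 3 Female control and triangles the 2 Setdb1 depleted libraries, short lines are group means; most genes sit near 0, and Col8a2 has the highest control mean on both alleles, at 26.9% on the castaneus and 14.0% on the domesticus allele.

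Among the fibrillar collagens the lowest promoter was that of Col5a1, the main chain of the type V collagen that starts fibrils. Its castaneus mC was 0.242, 0 and 0% in the 3 controls and 0% in both depleted libraries. The depth was 168 to 413 calls per library, so that a count of 0 in the shallowest allows up to 1.79% if calls are independent. Each of the 7 cytosines had only 24 to 59 calls, and they lie within a stretch of 62 bp, where calls can share a read. Counted by read, the limit would be higher. In the printed Col5a1 stretch, 6 of 7 cytosines were without a methylated call in every control. Col2a1, the cartilage fibril collagen, had 1.38, 2.79 and 1.92% in controls and 2.21 and 2.27% in depleted libraries on the castaneus allele, so this cartilage gene also had an almost unmethylated promoter in fibroblasts. Its domesticus values were 2.89 to 5.47% over the 5 libraries. Col5a3 and Col27a1 had control means of 2.52 and 1.58% on the castaneus and 2.5 and 2.51% on the domesticus allele. Col5a2, the partner chain of Col5a1, had 1 used promoter position, on the castaneus allele, with no methylated call among 58 to 95 calls per library.

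The basement membrane collagens split into a low and a higher pair. The shared promoter of Col4a1 and Col4a2, the chains of the ubiquitous type IV network, had 0.634, 0.190 and 0.984% mC in controls and 0.706 and 0% in depleted libraries on the castaneus allele, and at most 0.439% in any library on the domesticus allele. The shared promoter of Col4a3 and Col4a4, chains of the network of kidney glomeruli, had 4.85, 12.5 and 5.74% in controls and 7.09 and 18.5% in depleted libraries on the castaneus allele. Its control mean was 7.68% ± 4.16 (SD, n = 3) there and 9.15% ± 1.18 on the domesticus allele. Col18a1, the precursor of endostatin, had a control mean of 5.60% ± 2.61 on the castaneus and 1.90% ± 1.66 on the domesticus allele.

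FACIT promoters ranged from among the lowest to the second highest. Col16a1 had a methylated call in 1 of 3 controls on each allele, with control means of 0.0988% on the castaneus and 0.0733% on the domesticus allele, from 820 to 1012 and 261 to 455 calls per library. In the printed Col16a1 stretch, 11 of 13 cytosines on the castaneus and 6 of 7 on the domesticus allele were without a methylated call in controls. Col19a1 was also low, at 0.502% ± 0.283 on the castaneus and 0.385% ± 0.343 on the domesticus allele. The cartilage FACIT Col9a3 was higher, with 22.2, 22.1 and 5.26% in controls and 14.8 and 15.6% in depleted libraries on the castaneus allele, and 13.1% ± 2.28 in controls on the domesticus allele. In Col9a3 the control with 5.26% lay well under the others, at 81 to 192 calls per library. Col9a2 had control means of 6.48 and 5.66% and Col14a1 of 2.34 and 3.62% on the castaneus and domesticus alleles. Col9a1, the third chain of the cartilage FACIT, had only 2 promoter positions, on the domesticus allele. They lie at -911 and -834 bp from its start and had 83.3% ± 5.43 mC in controls, the highest control mean among the collagen promoters with any position.

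Of the remaining promoters, Col7a1, the collagen of anchoring fibrils in skin, had 12.01, 4.4 and 5.48% in controls and 4.196 and 14.9% in depleted libraries on the castaneus allele, and 6.11% ± 1.64 in controls on the domesticus allele. The transmembrane collagens Col13a1 and Col23a1 had 1.17 and 1.52% on the castaneus and 0.609 and 1.55% on the domesticus allele. Col8a2, a network collagen of Descemet's membrane in the cornea, had the highest control mean of the 19 castaneus promoters. Its values were 33.9, 26.8 and 19.9% in controls and 28.6 and 32.0% in depleted libraries on the castaneus allele, and 19.6, 9.84 and 12.5% against 8.46 and 7.203% on the domesticus allele. Within the printed Col8a2 stretch this mean was uneven. The cytosines up to 0.16 kb after the start had control means of 0.694 to 8.81% over both alleles, and those 0.31 to 0.32 kb after it had 29.7 to 49.4% on the castaneus and 38.9 and 40.9% on the domesticus allele.

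Gene bodies were mostly methylated. The median over 21 genes was 79.8% ± 1.76 (SD, n = 3) on the castaneus and 79.4% ± 0.245 on the domesticus allele, against 76.8% ± 1.06 and 77.1% ± 0.885 over all gene bodies measured. Above 60% lay 16 of the 21 collagen gene bodies on each allele (76.2%), against 69.6 and 70.0% of all. In every gene with both regions measured, the body exceeded the promoter in all 5 libraries, for 13 of 13 genes on the castaneus and 14 of 14 on the domesticus allele. Over all genes this held for 91.1 and 91.7%, so the collagen genes share a general pattern. The gap in mC between body and promoter had a median of 76.0 percentage points on the castaneus allele, from 11.2 in Col8a2 to 88.3 in Col4a2.

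**Figure D2:**
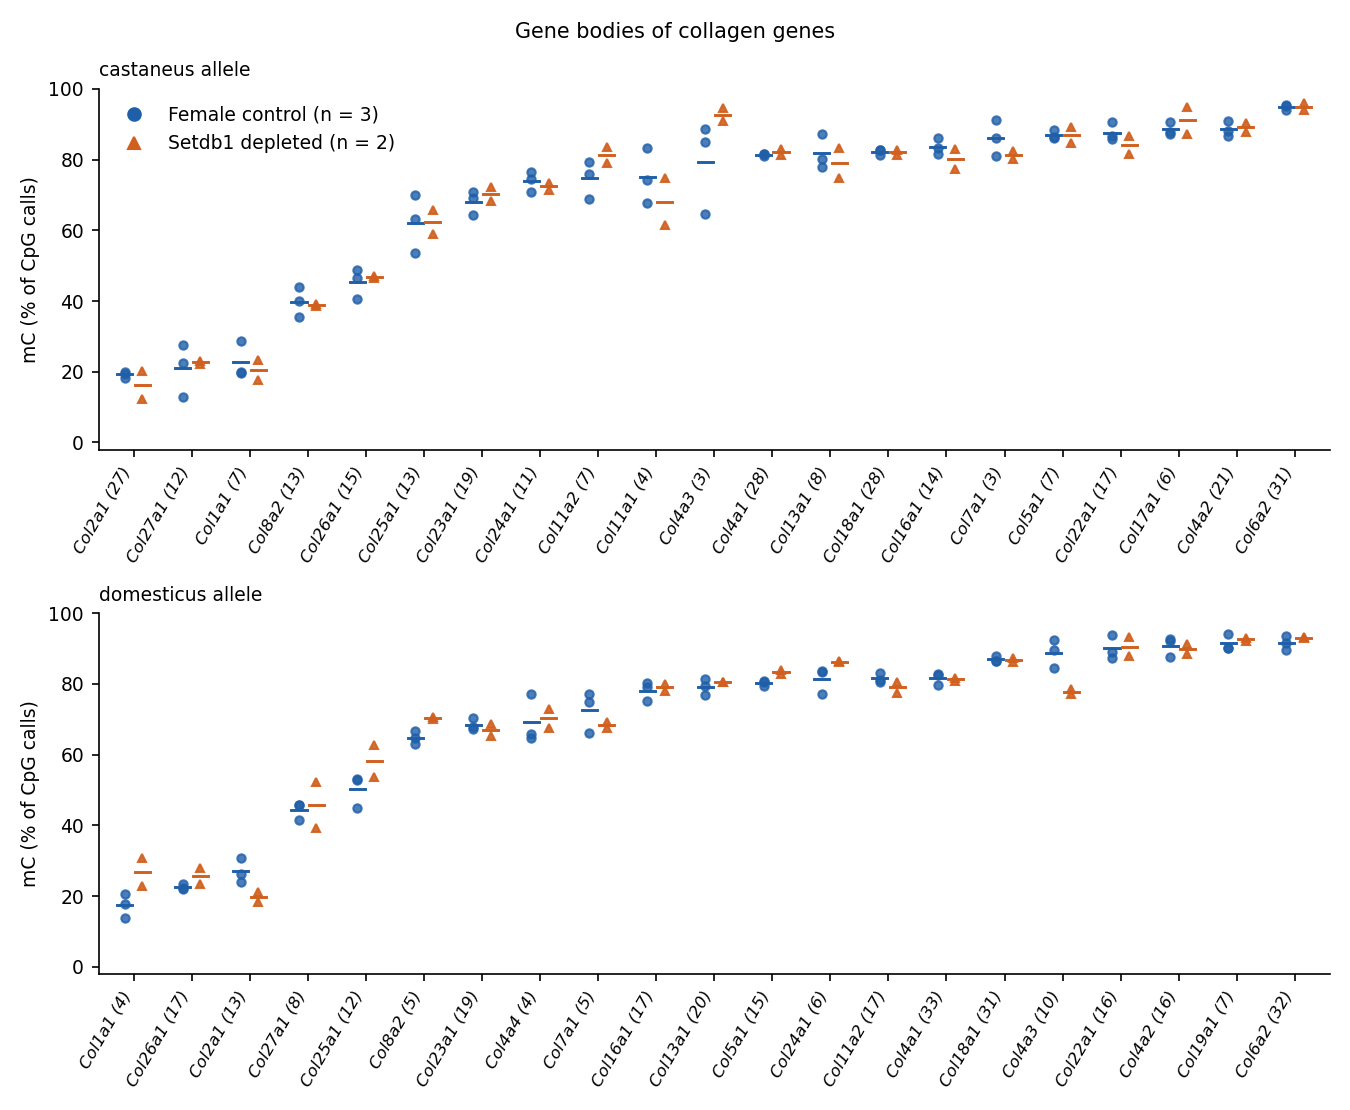
Gene body mC (percent of CpG calls, vertical axis) of each collagen gene with at least 3 positions, drawn as for the promoters, with the number of positions in brackets. A small set including Col2a1, Col1a1, Col27a1 and Col26a1 lies under 50% on both alleles and most of the others lie above 60%.

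The highest body level was that of Col6a2, a chain of the beaded filaments of type VI collagen. Its castaneus mC was 93.9, 95.3 and 95.2% in controls and 94.1 and 96.0% in depleted libraries over 31 positions. All 12 measured cytosines of the printed Col6a2 coding stretch had control means of at least 81.1% on either allele. Col6a1, its partner chain, had 2 body positions on the domesticus allele with 94.2% ± 2.93 in controls. Col4a2 had 91.0, 88.2 and 86.7% in controls and 90.4 and 87.8% in depleted libraries on the castaneus allele. Col17a1, the hemidesmosome collagen, had 88.6% ± 1.82 in controls, Col22a1, a FACIT of muscle-tendon junctions, 87.7% ± 2.60, and Col5a1 87.0% ± 1.18. Col4a1 and Col18a1 had 81.4% ± 0.322 and 82.3% ± 0.948, and on the domesticus allele 81.7% ± 1.63 and 87.0% ± 0.830. Col5a2 had 84.0% ± 0.523 over 2 castaneus positions.

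Col1a1 had one of the lowest bodies. Its covered body positions, 7 on the castaneus and 4 on the domesticus allele, lie in introns and coding exons. On both alleles 4 lie about 5.1 kb after the start, and the 3 others, covered on the castaneus allele alone, lie about 8.1 kb after it. Its castaneus mC was 19.6, 20.03 and 28.6% in controls and 23.4 and 17.7% in depleted libraries, and its domesticus mC was 13.8, 20.6 and 17.7% in controls and 30.8 and 22.7% in depleted libraries. In the printed Col1a1 stretch the control means of the 4 cytosines ran from 16.3 to 24.7% on the castaneus and from 13.8 to 21.5% on the domesticus allele. Of the 47 to 67 castaneus reads per library that covered at least 2 of these cytosines (median 4 per read), 55.3% ± 10.6 were methylated at none in controls, 43.6% ± 11.6 at some and 1.08% ± 1.86 at all. In depleted libraries these means were 50.3, 49.7 and 0%. On the domesticus allele 60.8% ± 3.13 of reads were methylated at none, 39.2% ± 3.13 at some and 0% at all in controls, and 37.3, 56.6 and 6.12% in depleted libraries, where the share methylated at none was 27.6 and 46.9% against 57.6 to 63.9% in controls. Over all 5094 castaneus and 4863 domesticus gene bodies, 16.3 and 16.1% were under 30%, as Col1a1 was.

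Col2a1 had a low average that hid separate blocks. Its castaneus body level was 20.1, 18.3 and 19.5% in controls and 20.2 and 12.2% in depleted libraries. The 17 castaneus positions 2.4 to 2.6 kb after the start, in an intron, had 1.31% ± 0.403 in controls, and the 8 covered on the domesticus allele had 0.841% ± 1.16. The printed Col2a1 stretch lies in this block, and its 12 castaneus cytosines had control means of 0 to 5.32%. Farther on, mC was 76.9% ± 6.22 at 2 positions 7.4 kb and 93.9% ± 2.64 at 5 positions 9.7 kb after the start on the castaneus allele, and 85.5% ± 4.73 at 5 positions 21.6 kb after the start on the domesticus allele. The gene mean thus depended on how many positions fell in each block.

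Col8a2 and Col26a1 showed the same kind of unevenness. The castaneus body of Col8a2 had 35.4, 44.1 and 40.1% in controls and 39.3 and 38.5% in depleted libraries. Of its positions, 4 in an intron 1.1 to 1.6 kb after the start had 58.4% ± 8.91 in controls, 6 positions 14.7 to 14.8 kb after it had 2.03% ± 2.20, and 2 coding positions 25.1 kb after it had 95.5% ± 5.66. The castaneus body of Col26a1, a collagen of gonads, had 46.6, 48.8 and 40.7% in controls and 46.6 and 47.1% in depleted libraries. Its 5 intron positions 80.03 kb after the nearest start had 15.9% ± 8.62 on the castaneus and 11.7% ± 5.06 on the domesticus allele, and 2 repeat positions 78.1 kb after it had 87.2% ± 4.04 and 76.7% ± 7.92. Col27a1, a fibrillar collagen of cartilage, had 12.8, 27.7 and 22.6% in controls and 22.3 and 23.01% in depleted libraries on the castaneus allele. Of its 12 castaneus body positions, 7 lie inside the annotated gene but upstream of the start of its basic transcript, by 1.3 to 1.4 kb, and they had 0.578% ± 0.813. Its coding positions 9.0 kb after the start had 77.3% ± 3.39 on the castaneus and 79.7% ± 4.13 on the domesticus allele. The Col27a1 body mean of 21.03% ± 7.56 on the castaneus allele averages over both. With the 5′ end of the gene as the start instead, it was 11.3% ± 2.51 on the castaneus and 21.7% ± 1.25 on the domesticus allele, where the mean had been 44.3%. The other measured bodies, those of Col7a1, Col11a1, Col11a2, Col13a1, Col16a1, Col23a1, Col24a1 and Col25a1 among them, had control means of 50.2 to 91.5% on either allele. Members with only 1 or 2 body positions included Col6a3, the third chain of type VI collagen, at 96.5% ± 4.75 and Col8a1 at 83.5% ± 3.31 on the castaneus allele, and the FACIT Col12a1 at 47.8% ± 4.59.

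**Figure D3:**
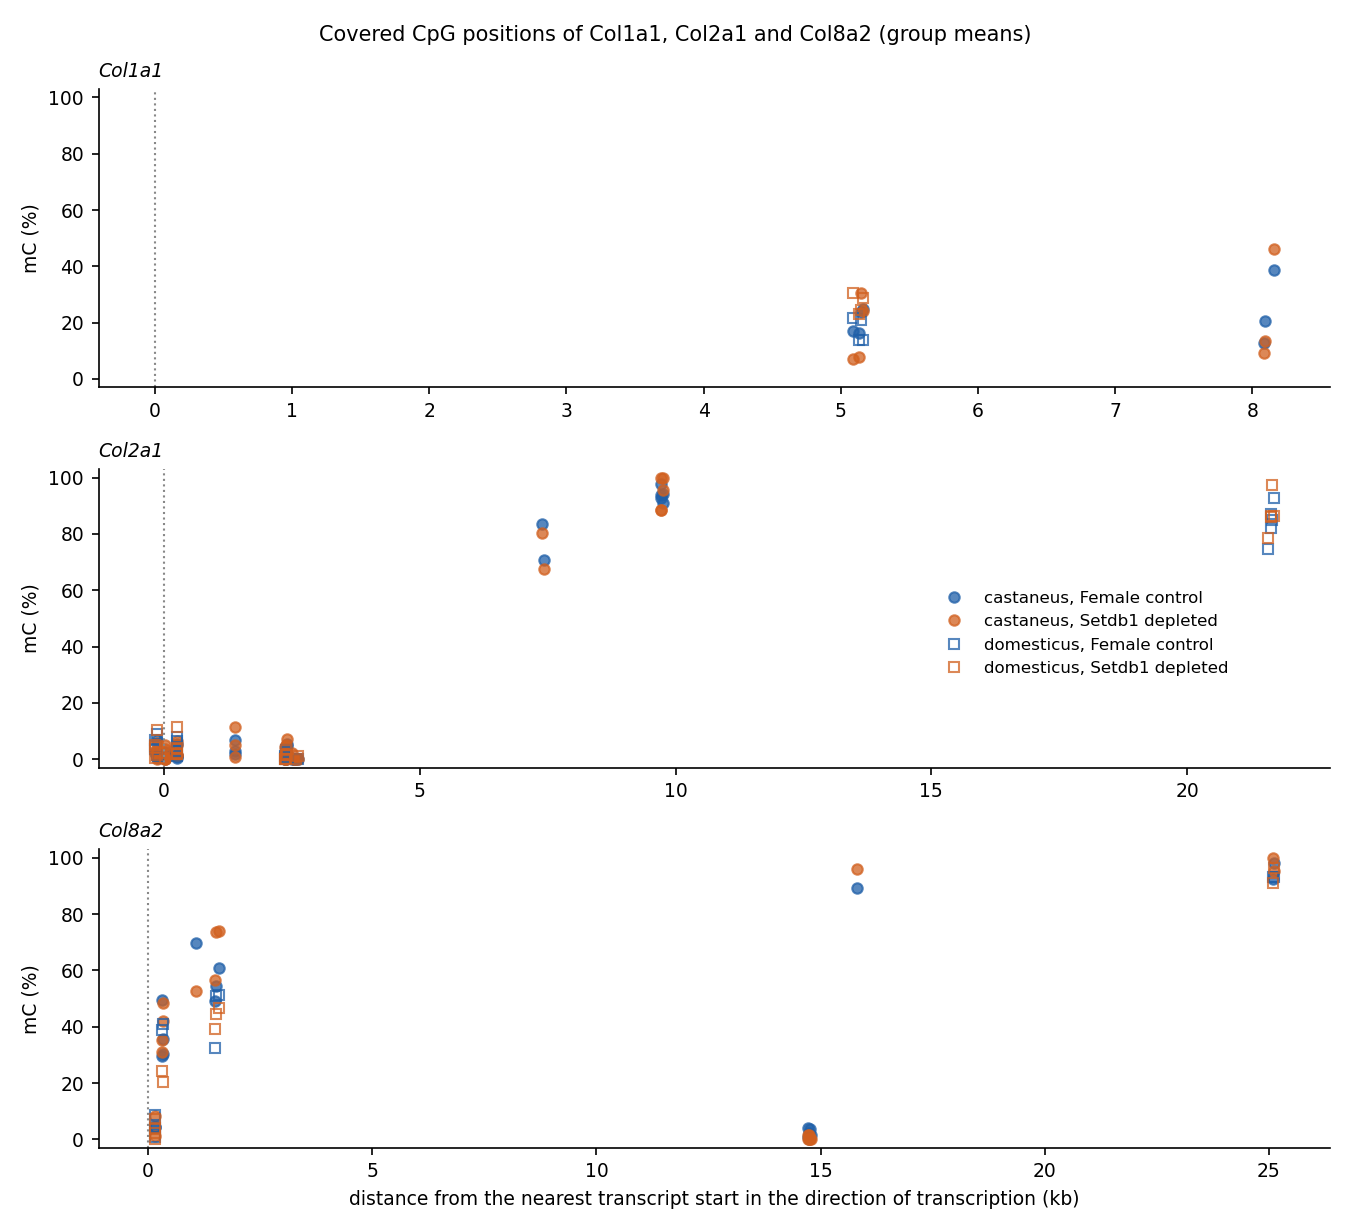
Group mean mC (percent, vertical axis) of every covered position of Col1a1, Col2a1 and Col8a2 against its distance from the nearest transcript start in kb. Filled circles are castaneus and open squares domesticus positions, blue the Female control and orange the Setdb1 depleted means; Col2a1 and Col8a2 hold blocks near 0 and blocks above 70%, and the covered Col1a1 positions lie under 50%.

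With positions that lay within 500 bp of each other joined, the collagen gene bodies held 111 blocks on the castaneus and 114 on the domesticus allele. In controls 59 and 58 of these had over 80% mC and 9 and 11 had under 20%. The low castaneus blocks lay in Col2a1, Col8a2, Col23a1, Col24a1, Col26a1 and Col27a1, and the low domesticus blocks in Col1a1, Col2a1, Col9a2, Col13a1, Col23a1, Col25a1, Col26a1 and Col27a1. In coding exons the pooled body mC was 87.1% ± 0.975 over 98 castaneus and 87.9% ± 0.981 over 97 domesticus positions, and in introns it was 59.6% ± 1.97 over 204 and 66.9% ± 0.849 over 215 positions. Intron positions here are all those inside the gene and outside the exons of its basic transcripts. They include the low blocks of Col2a1, Col8a2 and Col26a1. For Col27a1 they include positions upstream of the start of its basic transcript, 7 of them castaneus, which lie in no intron of that transcript.

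By distance from the nearest start of any gene, on either side of it, collagen positions had a lower median than all positions from 1 to 2 kb on both alleles. The medians were 2.07 against 10.3% on the castaneus and 3.60 against 15.8% on the domesticus allele, over 22 and 11 collagen positions. Of these 22 castaneus positions, 7 are the Col27a1 ones upstream of its transcript start, described above. On the castaneus allele the lower median went on to 5 kb. From 2 to 5 kb, 33 collagen positions had a median of 5.32% in controls and all 11747 positions had 68.3%. From 2 to 5 kb on the domesticus allele the medians were 75.1% for 23 collagen and 70.0% for all 11280 positions, and 17 of the 33 castaneus positions are the Col2a1 intron block. Within 250 bp of a start the medians were 1.19% for collagen and 0% for all castaneus positions. Beyond 5 kb collagen positions were above the general level on both alleles, with medians of 88.3 against 79.1% from 5 to 20 kb on the castaneus and 85.0 against 79.9% on the domesticus allele. Positions of a gene are not independent, so these are descriptions.

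**Figure D4:**
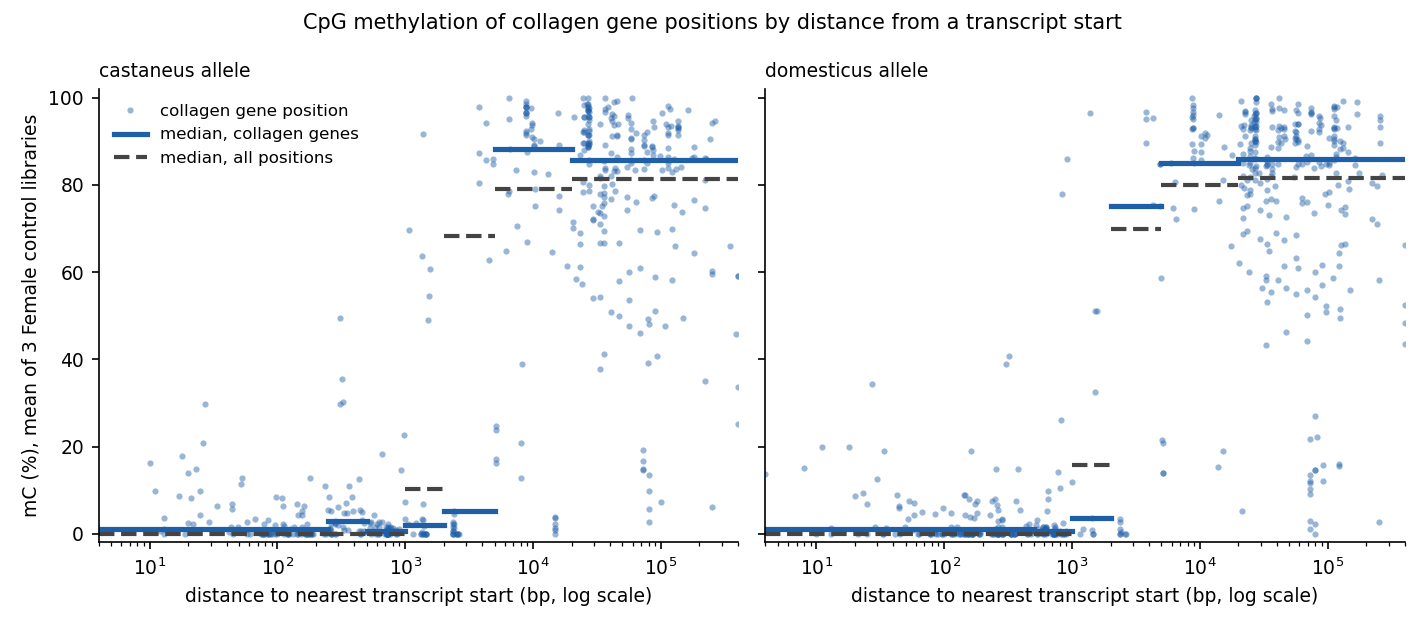
Control mean mC (percent, vertical axis) of each collagen gene position against its distance to the nearest transcript start of the same gene (log scale, distances under 4 bp are drawn at 4). Solid lines are medians of collagen positions and dashed lines medians of all positions in 7 bins of the distance to the nearest start of any gene. Positions near the start of another gene are thus drawn farther out than the bin that counts them. The castaneus collagen median from 2 to 5 kb is 5.32% and the general one 68.3%.

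The collagen promoters did not pass the test for a change with Setdb1 depletion on either allele. The test was a quasi-binomial model of methylated and unmethylated calls with the spread between libraries moderated by limma, adjusted over all genes measured. Of 19 collagen promoters on the castaneus and 18 on the domesticus allele, 0 had an adjusted p under 0.05 and 0 an unadjusted p under 0.05 (3.31 and 3.2% of all promoters), and limma on log ratios called 0. Over all promoters, 0.0357% on the castaneus and 0.0498% on the domesticus allele were called. The median difference (depleted minus control) was -0.211 percentage points over the collagen genes and -0.0357 over all genes on the castaneus allele, and -0.291 and -0.0424 on the domesticus allele. The groups did not overlap for 2 of 19 castaneus promoters (16.6% of all promoters) and 5 of 18 domesticus promoters (16.3% of all), and all of these were lower in depleted libraries. Of the promoters of all genes without overlap, 704 of 1391 on the castaneus and 707 of 1305 on the domesticus allele were lower. The collagen promoters without overlap were Col13a1 and Col23a1 on the castaneus allele, and Col4a3 with Col4a4, Col5a3, Col7a1 and Col8a2 on the domesticus allele. Col4a3 and Col4a4 share a promoter, so the same value is counted for both.

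The largest promoter differences had opposite signs on the alleles, but not every sign held as single libraries were left out. In Col8a2 the domesticus mean was 14.0% ± 5.01 in controls and 7.83% ± 0.891 in depleted libraries, a difference of -6.15 points with an adjusted p of 0.959, and the castaneus difference was 3.41 points. The castaneus difference was -0.0548 points without Female control replicate 3. The domesticus difference was -3.36 points without Female control replicate 1 and -0.269 points at positions with more than 20 calls. That filter drops the 2 domesticus cytosines 0.31 to 0.32 kb after the start, which had as few as 19 calls in a library. Their means were 38.9 and 40.9% in controls and 24.4 and 20.5% in depleted libraries, so the filtered value leaves out the part of the promoter with most mC. In the shared promoter of Col4a3 and Col4a4 the castaneus difference was 5.09 points (adjusted p = 0.954) and the domesticus difference -4.04 points (adjusted p = 0.959). Without Setdb1 depleted replicate 2 the castaneus difference of this promoter was -0.594 points, so its direction rested on that library, and the domesticus difference was -1.74 points. Without Setdb1 depleted replicate 1 they were 10.77 and -6.33 points. In Col18a1 the castaneus values were 8.12, 5.77 and 2.91% in controls and 3.06 and 0.755% in depleted libraries, a difference of -3.69 points with an adjusted p of 0.954 (-2.43 points without Female control replicate 1), and the domesticus difference was 2.53 points (1.09 points without Setdb1 depleted replicate 2 and 1.58 without Female control replicate 3). In Col5a3 the domesticus values were 3.69, 1.39 and 2.42% against 1.31 and 0.239%.

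No collagen gene body passed the test either. Of 21 genes on each allele 0 were called, against 0.0197% of all gene bodies on the castaneus and 0% on the domesticus allele, and limma on log ratios called 0. On the castaneus allele 0 collagen bodies and on the domesticus allele 2, Col4a3 and Col2a1, had an unadjusted p under 0.05 (6.48 and 5.88% of all gene bodies on these alleles). The median difference was 0.0356 points over the collagen genes and 0.172 over all genes on the castaneus allele, and 1.05 and 0.26 points on the domesticus allele. Groups did not overlap for 1 of 21 castaneus bodies (21.5% of all gene bodies) and 8 of 21 domesticus bodies (21.4% of all). The 8 were 6 higher in depleted libraries, Col1a1, Col5a1, Col8a2, Col24a1, Col25a1 and Col26a1, and 2 lower, Col2a1 and Col4a3. Of the domesticus bodies of all genes without overlap, 585 of 1036 were higher and 451 lower. The Col2a1 fall was not seen within its blocks, as given below. The Col26a1 body is also uneven, and its rise is not split by block here. At its 5 intron positions 80.03 kb after the nearest start, 53.1% ± 15.6 of domesticus reads were methylated at none in controls and 74.7% in depleted libraries. That block thus moved against the gene mean, though on 10 to 28 reads per library.

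Col4a3 had the largest difference on each allele, and the signs were opposite. Its castaneus body, 3 positions at 107 to 154 calls per library, had 64.6, 85.0 and 88.6% in controls and 94.5 and 90.9% in depleted libraries. Its domesticus body, 10 positions at 295 to 429 calls, had 92.5, 84.4 and 89.7% in controls and 78.6 and 77.1% in depleted libraries. The differences were 13.3 points (adjusted p = 0.762) and -11.0 points (unadjusted p = 0.00497, adjusted p = 0.458). Without Female control replicate 1, the library at 64.6%, the castaneus difference was 5.9 points. The position with the smallest p of the gene on either allele was a coding one 85.7 kb after the start, used on both. There the castaneus mC was 63.3, 73.3 and 94.2% in controls and 95.9 and 97.2% in depleted libraries, and the domesticus mC was 90, 91.1 and 94.9% against 75.4 and 75.9%.

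In the domesticus body of Col1a1 the depleted libraries, at 30.8 and 22.7%, lay above the controls, at 13.8 to 20.6%, a difference of 9.39 points with an adjusted p of 0.832 (5.34 points without Setdb1 depleted replicate 1). On the castaneus allele the groups overlapped and the difference was -2.17 points over 7 positions, which turned to 0.751 points without Female control replicate 3 and to 0.686 points without Setdb1 depleted replicate 2. At the 4 positions shared by the alleles the castaneus means were 20.6% ± 8.85 in controls and 17.6% ± 5.15 in depleted libraries. In Col2a1 the domesticus values were 26.3, 24.0 and 30.7% in controls and 21.1 and 18.4% in depleted libraries, a difference of -7.26 points (unadjusted p = 0.0113, adjusted p = 0.546), and the castaneus difference was -3.07 points, or 0.913 points without Setdb1 depleted replicate 2. Within blocks of Col2a1 the domesticus means were 0.841 and 0.983% near 2.4 kb in controls and depleted libraries. Near 21.6 kb they were 85.5 and 86.0%, so neither block fell. These blocks hold all 13 domesticus body positions of the gene, so the -7.26 points came from the share of calls that fell in each block. In Col25a1, the Alzheimer-plaque-associated transmembrane collagen, the domesticus values were 52.7, 53.1 and 44.8% in controls and 62.8 and 53.7% in depleted libraries (difference 7.98 points, adjusted p = 0.832). It was 3.43 points without Setdb1 depleted replicate 1, 12.5 points without replicate 2 and 5.28 points without Female control replicate 3. The castaneus difference in Col25a1 was 0.127 points and changed sign as single libraries were left out.

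On the castaneus allele the next differences belonged to the type XI collagen genes, whose chains nucleate cartilage fibrils. Col11a1 had 83.4, 67.8 and 74.2% in controls and 61.4 and 74.8% in depleted libraries (difference -7.00 points, adjusted p = 0.912). This difference ranged from -0.314 points without Setdb1 depleted replicate 1 to -13.7 points without replicate 2, and it was -2.85 and -10.7 points without Female control replicates 1 and 2. Col11a2 had 68.8, 79.4 and 76.0% in controls and 83.5 and 79.1% in depleted libraries (difference 6.58 points, adjusted p = 0.872), and on the domesticus allele its difference was -2.61 points (-1.03 points without Setdb1 depleted replicate 1). The castaneus value was 3.62 points without Female control replicate 1 and 4.36 without Setdb1 depleted replicate 1. For both genes the groups overlapped. Of the type IV, VI and XVIII collagen bodies with many positions, Col6a2 differed by 0.203 points on the castaneus and 1.55 on the domesticus allele, Col4a1 by 0.777 and -0.384, Col4a2 by 0.519 and -0.920 and Col18a1 by -0.231 and -0.134. Of these values the domesticus one of Col6a2 alone kept its sign whichever library was left out. Its size moved from 0.537 points without Female control replicate 3 to 2.545 points without Female control replicate 1. The Col5a1 body differed by 0.0356 points on the castaneus and 3.12 points on the domesticus allele, where the groups did not overlap (adjusted p = 0.892).

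Single positions gave the same picture. Of 434 collagen positions that could be tested on each allele, 0 were called (0.00728% of all castaneus and 0.0417% of all domesticus positions), 14 on the castaneus and 10 on the domesticus allele had an unadjusted p under 0.05 (3.23 and 2.3%, against 4.01 and 3.85% of all positions), and limma called 0. The smallest adjusted p of the limma-moderated test on the castaneus allele, 0.901, was shared by several positions. Among them a coding position of Col7a1, 15.9 kb after its start and near the start of another gene, had 59.1, 86.6 and 76.9% in controls and 87.5 and 93.9% in depleted libraries. A coding position of Col5a3, 10.3 kb after its start, had 78.4, 90 and 69.05% in controls and 81.25 and 32.8% in depleted libraries, so that a single depleted library lay apart from the others. On the domesticus allele an intron position of Col5a1, 102.1 kb after its start, had 86.4, 75.6 and 92.96% in controls and 100% and 97.2% in depleted libraries, with an adjusted p of 0.905.

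The alleles were compared at positions covered on both, with the library as a block. In every library the castaneus allele was paternal and the domesticus allele maternal, so effects of strain and of parent of origin cannot be told apart. Of 16 collagen promoters 0 were called (2.82% of all promoters; 3 had an unadjusted p under 0.05, against 12.6% of all promoters, and 2 of the 3, Col4a1 and Col4a2, share 1 promoter), and limma on log ratios called 0. The median difference (castaneus minus domesticus) was 0.503 points over the collagen promoters and 0.00361 over all promoters, and -1.75 points over the collagen bodies and -0.0278 over all bodies. Of 17 gene bodies 1 was called, Col6a2, against 11.3% of all gene bodies. In Col6a2 the castaneus mC was 93.9, 95.3, 95.2, 94.1 and 96.0% over the 5 libraries and the domesticus mC was 93.6, 91.6, 89.4, 92.96 and 93.2%, so every castaneus value exceeded every domesticus value. The libraries of the alleles did not overlap for 2 of 17 collagen bodies (11.8%), Col6a2 and Col4a2, against 9% of all gene bodies. The difference was 2.74 points ± 2.14 (SD over libraries), and castaneus was higher in 5 of 5 libraries (adjusted p = 0.0130). This call was lost with either limma test and in the 3 controls alone, and also without Female control replicate 2 (2.5 points, adjusted p = 0.0591) or replicate 3 (1.99 points, adjusted p = 0.112). It rested on 31 positions and 1183 to 1905 calls per library and allele. These positions are single cytosines, and both strands of a CpG can count. In the printed stretch 12 of them come from 7 CpGs within 111 bp, where calls can share a read.

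**Figure D5:**
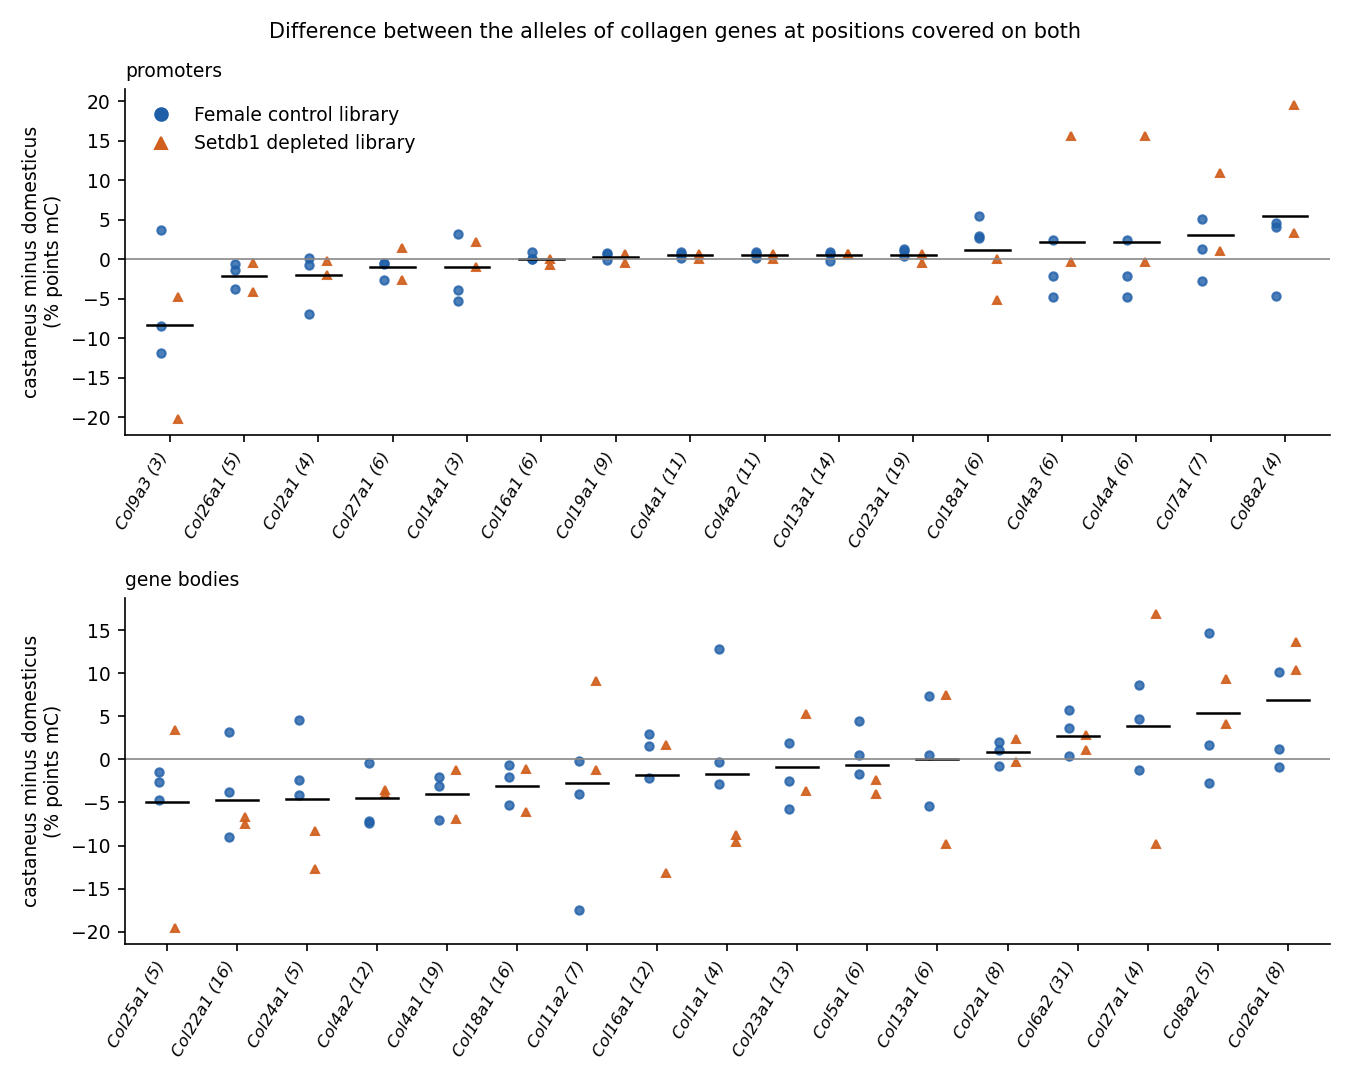
Castaneus minus domesticus mC (percentage points, vertical axis) per library for each collagen gene at positions covered on both alleles, ordered by the mean, with the number of positions in brackets. Circles are Female control and triangles Setdb1 depleted libraries, black lines are means over the 5 libraries; Col6a2 bodies lie above 0 and Col4a1, Col4a2 and Col18a1 bodies below 0 in every library.

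The 3 basement membrane collagen bodies compared lay lower on the castaneus allele in 5 of 5 libraries, without passing the test. Of all 17 collagen bodies these 3 did so (17.6%), against 11.5% of all gene bodies. Col4a2 had 85.1 to 88.1% on the castaneus and 88.5 to 93.02% on the domesticus allele without overlap, a difference of -4.53 points ± 2.90 (adjusted p = 0.0613). Col4a1 differed by -4.06 points ± 2.72 (adjusted p = 0.0975) and Col18a1 by -3.06 points ± 2.51 (adjusted p = 0.222). Col22a1 differed by -4.74 points ± 4.82 (adjusted p = 0.0749), with castaneus lower in 4 of 5 libraries. The largest body differences had a wide spread, with 6.91 points ± 6.32 in Col26a1, 5.43 ± 6.76 in Col8a2 and -4.98 ± 8.68 in Col25a1 (adjusted p = 0.262, 0.369 and 0.574). The values were 2.83 points in Col26a1 without filter-marked reads, 3.11 in Col8a2 without Female control replicate 3 and -1.33 in Col25a1 without Setdb1 depleted replicate 1, and the mean over positions gave 10.6 points in Col8a2. Among promoters the largest were -8.30 points ± 8.81 in Col9a3, 5.42 ± 8.75 in Col8a2 and 3.09 ± 5.14 in Col7a1 (adjusted p = 0.367, 0.584 and 0.506). Without Setdb1 depleted replicate 2 these were -5.33, 1.88 and 1.15 points. In the Col9a3 promoter, which gave the largest, the castaneus allele was lower in 4 of 5 libraries.

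Genes that process, cross-link, degrade or bind collagen were listed beside the structural genes. Of 47 such genes, 25 promoters were measured on the castaneus and 22 on the domesticus allele, with medians of 0.316 and 0.24% in controls, and 22 and 21 of these were under 5%. The promoter of Ddr1, a receptor tyrosine kinase for collagen, was the highest on both alleles at 27.9% ± 5.70 and 43.2% ± 4.49. With depletion, 0 of these promoters or bodies were called on either allele, and 0 of the promoters had an unadjusted p under 0.05. Among the bodies, 2 of 18 on the castaneus and 2 of 20 on the domesticus allele had an unadjusted p under 0.05 (11.1 and 10%, against 6.48 and 5.88% of all gene bodies). Mia3, which helps load procollagen into transport carriers, was among them on both alleles. Its body had 31.4% ± 6.29 in controls and 42.8% ± 3.42 in depleted libraries on the castaneus allele (difference 11.4 points, adjusted p = 0.114), and 13.2% ± 1.54 and 20.9% ± 0.156 on the domesticus allele (7.77 points, adjusted p = 0.321). The others were Ddr2, a receptor for fibrillar collagen, with 45.3% ± 6.78 and 32.4% ± 15.3 on the castaneus allele (-12.9 points, adjusted p = 0.557, and -2.07 points without Setdb1 depleted replicate 1), and Plod2, a lysyl hydroxylase of collagen telopeptides, with 64.7% ± 4.54 and 81.5% ± 1.44 on the domesticus allele (16.8 points, adjusted p = 0.488). On the other allele the differences were -0.920 points in Ddr2 (domesticus) and 0.0441 points in Plod2 (castaneus).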

How the data were processed

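Per the labels and the methods of the study, DNA of transduced MEFs was made into eRRBS libraries. Single-end reads with dark cycles were adapter-trimmed (Trim Galore). The authors then mapped them with Bismark against mm10 in which positions differing between the strains were N, ignored the first and last bases of reads, and assigned reads to an allele with SNPsplit, C/T SNPs excepted. Methylation was extracted per CpG (Bismark extractor, 0.13.0). The submitters' processing notes also name CASAVA 1.4. The deposited values are single methylation calls, 1 CpG of 1 read per line, without normalisation or coverage filter. Removal of PCR duplicates is not given in the sources used here, so errors and limits from counts cover counting error only. Duplicates would make calls of a library less independent, and so do CpGs that share a read. Calls of reads marked by the sequencer's filter (5.34 to 5.66%) were kept.

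Calls were summed per position, allele and library, and % mC of a gene region is the methylated share of its summed calls. Group values are means ± SD over 3 Female control or 2 Setdb1 depleted libraries. Promoters and bodies of all genes entered quasi-binomial models (R 4.3.3) with dispersion moderated by limma 3.58.1, not under 1, with the prior from features with at least 5 expected calls of each kind per library. P-values are two-sided and were adjusted by Benjamini-Hochberg over all genes, or all positions, of an allele. The depletion model was tried on simulated castaneus promoters, with large changes planted at intermediate mC alone. Smaller changes, gene bodies, single positions and the allele comparison were not simulated, so the simulation does not show how well changes there would be found. Exact permutation of 3 against 2 libraries cannot go below 0.1. Counting, summaries and plots were made in Python (3.11.15; pandas 2.3.3, numpy 2.4.6, matplotlib 3.10.9). Stretches of sequence were read from GRCm38, the assembly of mm10.

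The minimum of 10 calls is lower than that of the study, which is an alternative (more than 20 calls). The other alternatives were calls without filter-marked reads, limma on log2((mC + 0.5)/(C + 0.5)) and on means over positions, 500 bp around starts, the 5′ end of the gene alone, 1 position per gene, both strands of a CpG summed, a replicate block, no library block, the controls alone and each library left out. The last was extended to all members and pathway genes after seeing the data. Named were members past the threshold, the 3 with the largest difference in each comparison, the 5 highest and 5 lowest control levels of castaneus promoters and bodies, and Col1a1, Col1a2, Col3a1, Col5a1, Col5a2, Col4a1, Col4a2, Col6a1, Col6a2 and Col18a1 where covered. Other genes and positions in the text were chosen after their values were seen. The members and lists were chosen with earlier results of these data known.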

Additional observations from a re-analysis of the deposited data

Results flagged for a closer look

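The Col4a3 body was singled out because its groups did not overlap on either allele and lay apart in opposite directions, by 13.3 percentage points (depleted minus control) on the castaneus and -11.0 points on the domesticus allele. The difference between the alleles was not tested, and neither value passed the adjusted threshold. Without Female control replicate 1, whose castaneus level was 64.6%, the castaneus value was 5.9 points.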

How the results depend on the processing

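With depletion, 0 collagen promoters, bodies or positions were called under every alternative that was run on these 6 comparisons, each library left out included. No collagen promoter was called in the allele comparison under any alternative either. The number of bodies called between the alleles, 1, became 2 with more than 20 calls (Col6a2 and Col22a1) and 0 with limma on log ratios, with limma on the mean over positions and in the 3 controls alone. It ranged from 0 to 2 as each library was left out, with Col22a1 called in place of Col6a2 without Female control replicate 3 and Col4a2 called beside Col6a2 without Female control replicate 1. The cause was not tested. The castaneus difference of the Col4a3 and Col4a4 promoter ranged from -0.594 points without Setdb1 depleted replicate 2 to 10.77 points without Setdb1 depleted replicate 1 as libraries were left out. The median control level of domesticus bodies moved from 79.4 to 78.5% with more than 20 calls, which leaves 19 of 21 genes. Libraries with the same number share only that number in the labels. Their deviations from the group means correlated at -0.0996 to 0.0278 across genes, and the replicate block left the number of collagen genes and positions called with depletion at 0. Depth limits the genes with few positions, such as the castaneus Col4a3 body at 107 to 154 calls per library.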
